A study of Mus musculus with 6 samples.

Results

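The genes described here are the 9 members of the Kit, PI3K and Foxo3 signalling group, *Kit*, *Kitl*, *Pdpk1*, *Foxo1*, *Foxo3*, *Tsc1*, *Tsc2*, *Rac1* and *Cdkn1b*. They were chosen by name, for what they are known to do in the ovary, with earlier results of these data known. All 9 were found among the 54532 genes of the expression table. Expression was measured by RNA-seq in whole ovaries of C57BL/6 mice at 16.5 dpc, in 3 Ctrl and 3 cKO libraries. The cKO ovaries were *Stra8-GFPCre Srsf1* fl/fl, in which a Cre made from the *Stra8* promoter deletes part of *Srsf1*, a splicing factor gene, in germ cells as they approach meiosis. The Ctrl ovaries are wild type by their labels, and whether they carried Cre or the floxed allele is not given there. The somatic cells of a cKO ovary keep *Srsf1*, so each library mixes deleted germ cells with intact somatic cells. The study asked which genes behind primordial follicle formation depend on SRSF1, and the comparison of cKO with Ctrl addresses that question for this pathway before birth. In newborn cKO ovaries the study reported lower *Kit* and *Rac1* by RT-qPCR relative to the germ cell gene *Vasa* (*Ddx4*). That is another age and another scale than those used here.

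KIT is a receptor tyrosine kinase on the surface of germ cells, and its ligand, KITL, is made by the somatic cells around them. The activated receptor recruits PI3-kinase, whose lipid product brings AKT and its activator PDPK1 to the membrane, and AKT then restrains FOXO3 and FOXO1 by moving them out of the nucleus and relieves the block that the TSC1 and TSC2 proteins place on mTORC1. In the ovary this pathway is known for the survival of germ cells and for the balance between dormant and growing primordial follicles, which FOXO3 and the cell cycle inhibitor p27, the product of *Cdkn1b*, keep dormant.

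*Kit* and *Kitl* each make products that differ by a short alternative segment, and these segments are shown because the deleted gene encodes a splicing factor while the values below cannot see the choice. Both are read from GRCm38 on the plus strand with the exons of GENCODE M21. Exon 9 of *Kit* at chr5:75638965-75639158 has 194 bases, and the 12 bases in capitals at its end, which lie in the coding part that gives the extracellular side of the receptor, are kept in the transcript Kit-201 and left out in Kit-204. Exon 6 of *Kitl* at chr10:100080857-100080940, all 84 bases in capitals, is kept in Kitl-202 and skipped in Kitl-201, and it is known to encode the main site at which the ligand is cut from the cell surface.
Kit exon 9: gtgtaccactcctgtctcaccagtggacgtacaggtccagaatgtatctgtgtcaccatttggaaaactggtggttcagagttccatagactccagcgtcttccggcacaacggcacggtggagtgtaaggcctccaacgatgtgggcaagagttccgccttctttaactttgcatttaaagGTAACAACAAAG
Kitl exon 6: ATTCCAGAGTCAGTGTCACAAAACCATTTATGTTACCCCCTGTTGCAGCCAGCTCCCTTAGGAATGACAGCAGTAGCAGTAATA
The coding sequence is 2937 bases with and 2925 bases without the *Kit* segment, and 819 and 735 bases with and without the *Kitl* exon. The segments make up 0.135% of the counted length of *Kit* and 1.42% of that of *Kitl*. Each value below is 1 sum over all products of a gene, so the forms were not told apart. The study searched its RNA-seq reads for changed splicing, and neither *Kit* nor *Kitl* is among the events it listed as significant. Absence from that list does not show that the forms were equal.

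Values are FPKM, the fragments on a gene divided by its length and by the size of the library, and can be compared between genes per length. Reads on genes ranged from 14212164 to 16784241 over the 6 libraries. The targeted gene was measured first. *Srsf1* stood at 80.2, 70.1 and 63.1 FPKM in Ctrl 1, 2 and 3 and at 32.4, 37.0 and 36.4 FPKM in cKO 1, 2 and 3. Every cKO library lay below every Ctrl library, and the cKO mean was 50.5% lower (log2 fold change -0.99 ± 0.13 SE on the log2(FPKM + 1) scale, limma, unadjusted p = 0.000158). Fold changes on this scale understate the change of genes with low values. The labelled tissue was visible in its markers, with the pregranulosa gene *Foxl2* at 47.5 to 74.6 FPKM and the germ cell gene *Ddx4* at 13.1 to 55.1 FPKM over the libraries. Germ cells and somatic cells are not separated in these libraries, and fewer cells of a type and less RNA per cell cannot be told apart. The libraries also differed in cell makeup beyond genotype. The summed FPKM of 9 red blood cell genes ran from 1703 in cKO 1 to 23319 in Ctrl 1. The methods describe the libraries as biological replicates, but the labels do not say that they came from separate animals, so the p-values measure the spread between these libraries.

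Among the 9 genes, *Kit* was lower in cKO ovaries, and the other 8 did not pass the limit. A gene is called at an unadjusted p below 0.05, the limit of the study. The study applied that limit to DESeq2 on read counts. Here it is applied to limma on log2(FPKM + 1), so the calls are not those of the study. The call on *Kit* is 1 of 9, beside 4.43% of the 17180 genes tested in either direction and 1.75% called lower. No gene of the table passed after Benjamini-Hochberg adjustment in limma, while 761 passed unadjusted, and 4 passed adjustment without Ctrl 1. With all libraries the adjusted p of *Kit* was 0.978. The groups did not overlap for *Kit*, the only such gene of the 9, beside 8.68% of all genes tested and 4.10% that were lower in cKO. The median log2 fold change was 0.05 over the 9 genes and -0.01 over all genes tested.

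**Figure D1:**
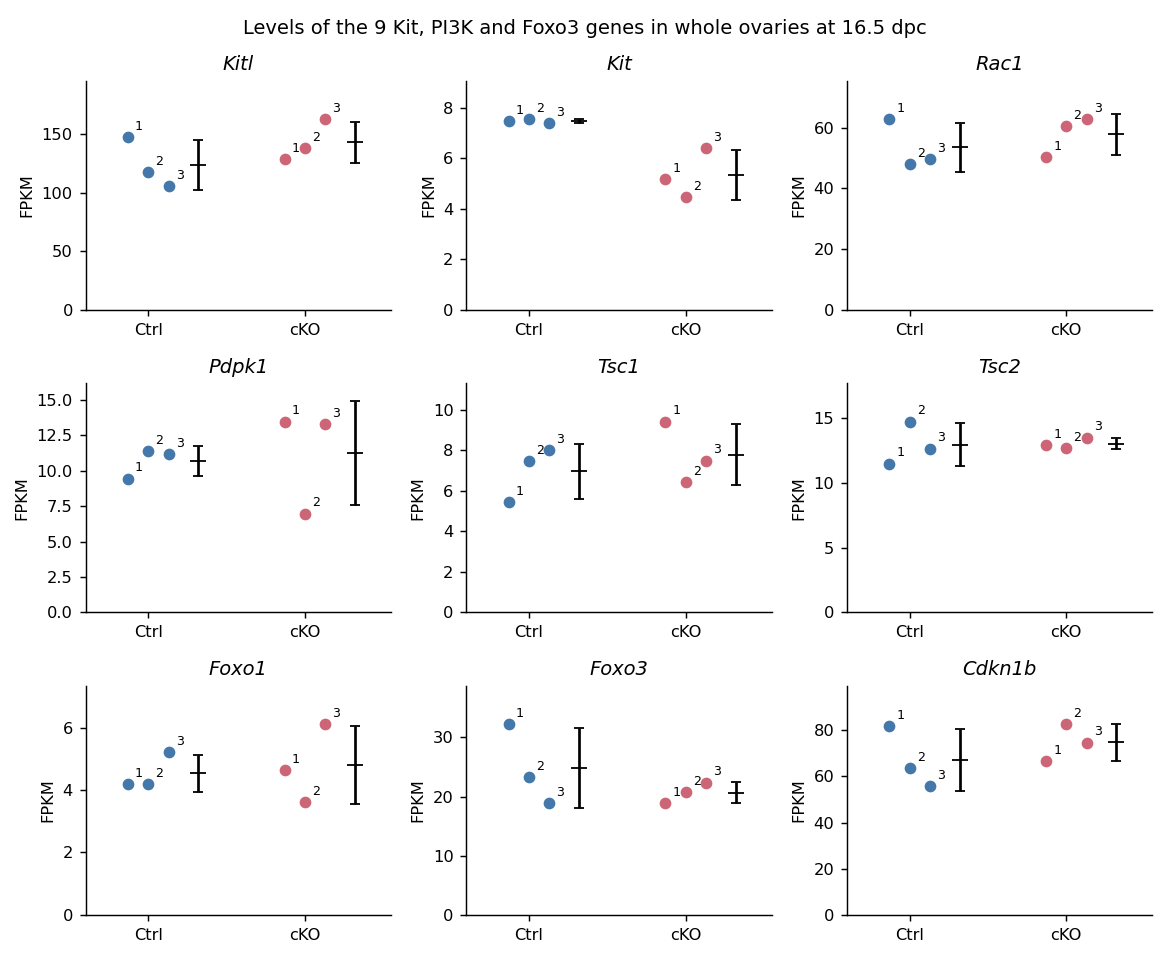
FPKM of the 9 genes in each library, with 1 panel per gene and an axis from 0. Points are libraries marked with their replicate number, and bars show the mean ± SD of 3 libraries. The 3 cKO values of *Kit* lie below the 3 Ctrl values, and in the other 8 panels the groups overlap.

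The ligand came first in level. *Kitl* (ENSMUSG00000019966, chromosome 10 from 100015630 to 100100416, plus strand) gave 147.3, 118 and 106.1 FPKM in Ctrl 1, 2 and 3. The cKO libraries gave 128.9, 138.1 and 162.9 FPKM. The highest value was in cKO 3 and the lowest in Ctrl 3, with Ctrl 1 above cKO 1 and cKO 2, so the groups overlapped. The means were 124 ± 21.2 in Ctrl and 143 ± 17.6 in cKO (SD, n = 3), and the log2 fold change was 0.22 ± 0.17 (SE, limma, unadjusted p = 0.239). The 95% interval of the ratio ran from 0.881 to 1.53. With 10952 to 13699 reads per library, counting adds less than 1% of error to *Kitl*, and the spread between libraries sets this interval. *Kitl* is made by pregranulosa cells, the somatic cells that surround the oocytes. The 12 pregranulosa genes, among them *Foxl2*, *Amhr2* and *Wnt4*, summed to 485 to 556 FPKM in Ctrl and 439 to 658 FPKM in cKO. Against the mean log2 level of that list, *Kitl* stood at 2.20, 1.80 and 1.76 in Ctrl and at 2.22, 1.88 and 2.41 in cKO, a difference of 0.25 that the exact permutation test over libraries did not tell from their spread (two-sided p = 0.2). With 3 libraries against 3 that test cannot go below 0.1. The difference was 0.39 without Ctrl 1, 0.40 without cKO 2 and 0.13 without cKO 3.

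The receptor gave the only difference past the limit among the 9 genes. *Kit* (ENSMUSG00000005672, chromosome 5 from 75574916 to 75656722, plus strand) stood at 7.47, 7.55 and 7.39 FPKM in Ctrl 1, 2 and 3. In cKO 1, 2 and 3 it stood at 5.18, 4.45 and 6.41 FPKM. All cKO libraries were below all Ctrl libraries, with cKO 2 lowest and cKO 3 nearest to Ctrl. The mean was 7.47 ± 0.0803 in Ctrl and 5.35 ± 0.989 in cKO (SD, n = 3), a ratio of 0.716. The log2 fold change was -0.43 ± 0.14 (SE, limma, unadjusted p = 0.0215), and its 95% interval corresponds to a ratio of FPKM + 1 between 0.587 and 0.943. The exact permutation test gave p = 0.1, the smallest value it can give here. The SD was 1.08% of the mean in Ctrl, below the counting error of 3.04% that their reads carry, and 18.5% in cKO. The small Ctrl spread holds for the library sizes used in the FPKM values. Those sizes were 0.965, 1.03 and 1.04 times the reads on genes in Ctrl 1, 2 and 3. *Kit* rested on 666 to 1150 reads per library.

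The call on *Kit* was lost when any of 4 libraries was left out. Without Ctrl 1, Ctrl 2, Ctrl 3 or cKO 1 the log2 fold change was between -0.43 and -0.41, and the unadjusted p was 0.0520, 0.0639, 0.0505 and 0.0590 in that order. Without cKO 2 it was -0.32 (limma, unadjusted p = 0.0440) and without cKO 3 it was -0.54 (unadjusted p = 0.00754).

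More than 1 cell type of a whole ovary can carry *Kit*, and their marker genes differed widely between libraries. The 10 germ cell genes, among them *Ddx4* and *Dazl*, summed to 85.1, 173 and 307 FPKM in Ctrl 1, 2 and 3 and to 427, 160 and 467 FPKM in cKO 1, 2 and 3. The germ cell sum thus overlapped between the groups and was higher in cKO 1 and cKO 3 than in any Ctrl library. Of the 10 genes, 1, *Dazl*, was called higher. It was the largest part of the sum in both, with 169 FPKM in cKO 1 and 219 FPKM in cKO 3. *Mael* and *Tdrd1* were instead highest in Ctrl 3, and 7 of the 10 log2 fold changes of the list were above 0. The higher sums cannot be read as more germ cells. *Kit* minus the mean log2 level of that list was 0.28, -0.48 and -1.18 in Ctrl 1, 2 and 3, and in the cKO libraries it was -1.65, -0.92 and -1.54. The groups overlapped in this measure, with a difference of -0.91 (exact permutation test, two-sided p = 0.2). Without Ctrl 1 the difference was -0.54.

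Mast cells also bear KIT. Of the 10 mast cell genes, 6 were high enough to be tested and none was called. Their sum was 264, 96.3 and 51.8 FPKM in Ctrl 1, 2 and 3 and 7.45, 92.8 and 110 FPKM in cKO 1, 2 and 3, a range of 35.4-fold. *Cma1*, *Tpsb2* and *Cpa3* made up most of it, and *Mrgprb1* was at 0 in every library. *Kit* minus the mean log2 level of this list differed by 0.38 between cKO and Ctrl (exact permutation test, two-sided p = 0.7). Melanocyte genes, a further KIT-bearing lineage, summed to 1.28 to 3.28 FPKM over the 6 libraries, and 1 of 6 was tested. With the germ cell level as a covariate the log2 fold change of *Kit* was -0.49 (limma, unadjusted p = 0.0150), with the mast cell level -0.42 (unadjusted p = 0.0403) and with both -0.47 (unadjusted p = 0.0192). The share of all genes called lower in these fits was 3.21%, 2.31% and 3.59%. The mast cell covariate was chosen after the values had been seen. With 6 libraries, each added covariate leaves less from which to estimate the spread. The germ cell level also holds *Dazl*, itself called higher in cKO. These fits therefore cannot separate cell makeup from genotype. The list of mesonephros genes is of tissue beside the ovary. The mean log2 level of its 4 tested genes was lower in every cKO library, as *Kit* was. It was 1.66 to 1.92 in Ctrl and 1.42 to 1.62 in cKO (exact permutation test, p = 0.1). Taken singly, each of the 4 genes overlapped between the groups. *Pax2* of the same list, too low to be tested, went the other way, at 0.0986 to 0.116 FPKM in Ctrl and 0.169 to 0.220 FPKM in cKO. The part of mesonephros tissue in the difference of *Kit* was not tested.

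**Figure D2:**
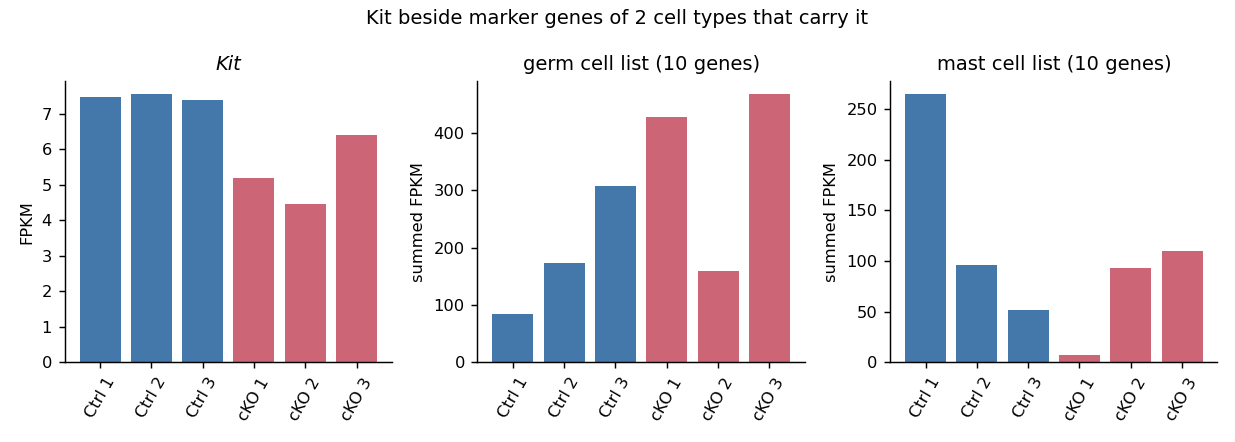
FPKM of *Kit* (left) and the summed FPKM of 10 germ cell genes (middle) and 10 mast cell genes (right) in each library, with bars from 0. *Kit* is near 7.5 in all Ctrl libraries, while the germ cell sum runs from 85.1 to 307 and the mast cell sum from 51.8 to 264 in the same 3 libraries.

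The ratio of *Kitl* to *Kit*, computed after the values had been seen and resting on the same *Kit* values, came to 19.7, 15.6 and 14.4 for Ctrl 1, 2 and 3, against 24.9, 31.0 and 25.4 for cKO 1, 2 and 3. It did not overlap between the groups (exact permutation test, p = 0.1).

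Between the receptor and its targets stand *Rac1* and *Pdpk1*. *Rac1* (ENSMUSG00000001847, chromosome 5 from 143503634 to 143528036, minus strand) encodes a small GTPase that organises the actin cytoskeleton downstream of surface receptors. Its values were 62.8, 48.1 and 49.7 FPKM in Ctrl 1, 2 and 3 and 50.2, 60.5 and 62.7 FPKM in cKO 1, 2 and 3. Ctrl 1 and cKO 3 were nearly equal at the top, so the groups overlapped. Its log2 fold change was 0.11 ± 0.15 (SE, unadjusted p = 0.489), with a 95% interval of the ratio from 0.839 to 1.39. *Rac1* overlaps *Daglb* on the other strand, and the spans of both genes, introns included, share 2309 bases. *Daglb* had a mean of 1.51 FPKM, and whether strand was used in counting is not stated in the sources used here.

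*Pdpk1* (ENSMUSG00000024122, chromosome 17 from 24073680 to 24150924, minus strand) encodes the kinase that activates AKT. It gave 9.45, 11.4 and 11.2 FPKM in Ctrl 1, 2 and 3 and 13.5, 6.99 and 13.3 FPKM in cKO 1, 2 and 3. No cKO library lay inside the Ctrl range, with cKO 2 below all Ctrl libraries and the other two above them. Its log2 fold change was 0.02 ± 0.25 (SE, unadjusted p = 0.930), and the ratio had a 95% interval from 0.677 to 1.52. Without cKO 2 the difference passed the limit at 0.31 (unadjusted p = 0.0464), in a fit that called 8.49% of all genes higher.

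*Tsc1* and *Tsc2* encode the partners of the complex that restrains mTORC1. *Tsc1* (ENSMUSG00000026812, chromosome 2 from 28641228 to 28691167, plus strand) stood at 5.43, 7.46 and 8.02 FPKM in Ctrl 1, 2 and 3 and at 9.42, 6.45 and 7.50 FPKM in cKO 1, 2 and 3. *Tsc2* (ENSMUSG00000002496, chromosome 17 from 24595816 to 24632630, minus strand) stood at 11.5, 14.8 and 12.7 FPKM in Ctrl and at 12.9, 12.7 and 13.5 FPKM in cKO. For *Tsc2* all cKO values lay inside the Ctrl range, and for *Tsc1* the lowest library was a Ctrl and the highest a cKO. The log2 fold change was 0.14 ± 0.19 for *Tsc1* (unadjusted p = 0.475) and 0.01 ± 0.13 for *Tsc2* (unadjusted p = 0.922). The ratio for *Tsc2* had a 95% interval from 0.821 to 1.24. Its span shares 693 bases, introns included, with that of *Pkd1* on the other strand, which had a mean of 9.85 FPKM. The ratio of *Tsc2* to *Tsc1* lay between 1.37 and 2.12 over the 6 libraries and overlapped between the groups (exact permutation test, p = 0.5).

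**Figure D3:**
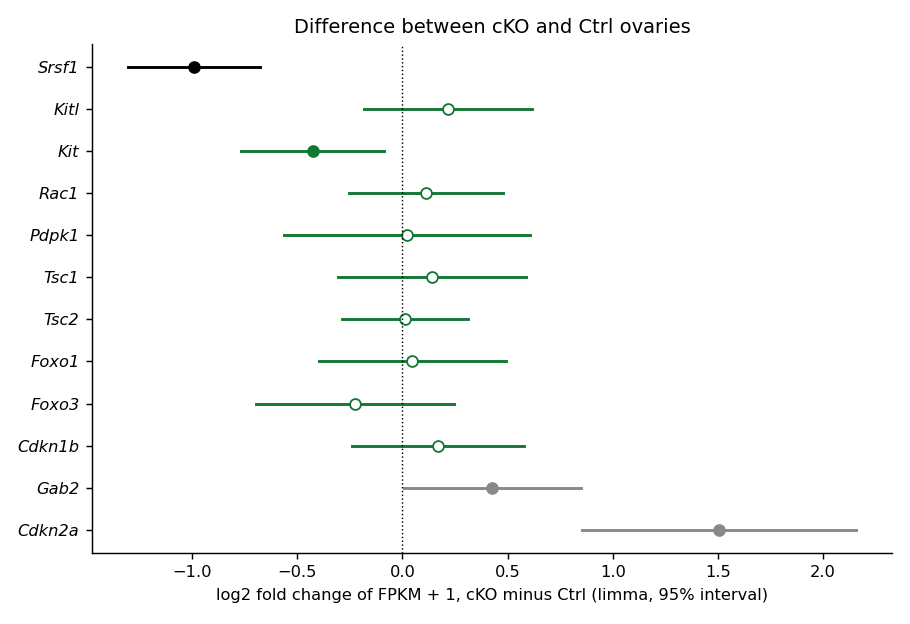
Log2 fold change of FPKM + 1, cKO minus Ctrl, for *Srsf1* (black), the 9 genes (green) and both other called pathway genes (grey). Lines are 95% intervals and filled points passed the unadjusted limit. Among the 9 genes the interval leaves out 0 for *Kit*, whose log2 fold change is -0.43.

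The transcription factors *Foxo3* and *Foxo1* are the nuclear end of the pathway. *Foxo3* (ENSMUSG00000048756, chromosome 10 from 42181841 to 42276755, minus strand) gave 32.3, 23.3 and 18.9 FPKM in Ctrl 1, 2 and 3 and 18.9, 20.7 and 22.4 FPKM in cKO 1, 2 and 3. The cKO values lay together inside the wider Ctrl range except for cKO 1, which was just below Ctrl 3, and Ctrl 1 was far above the rest. On the log2 scale the difference was -0.22 ± 0.20 (SE, unadjusted p = 0.296), and the ratio had a 95% interval from 0.618 to 1.19. Without Ctrl 1 it was -0.03 (limma, unadjusted p = 0.876). Ctrl 1 also held the highest sum of red blood cell genes, 23319 FPKM, and cKO 1 and Ctrl 3, the libraries lowest in *Foxo3*, held the lowest sums, 1703 and 4898 FPKM. Among Ctrl 2, cKO 3 and cKO 2 the order was reversed. *Foxo3* fell from 23.3 to 22.4 and 20.7 FPKM while that sum rose from 7935 to 9959 and 10470 FPKM. The part of red blood cells in the level of *Foxo3* was not tested.

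*Foxo1* (ENSMUSG00000044167, chromosome 3 from 52268336 to 52353221, plus strand) was the lowest of the 9 genes, at 4.20, 4.20 and 5.22 FPKM in Ctrl 1, 2 and 3 and 4.63, 3.62 and 6.11 FPKM in cKO 1, 2 and 3. Both extremes were cKO libraries, and the log2 fold change was 0.05 ± 0.19 (SE, unadjusted p = 0.810), with a ratio between 0.759 and 1.41. The ratio of *Foxo3* to *Foxo1* ran from 3.63 to 7.68 in Ctrl and from 3.66 to 5.72 in cKO (exact permutation test, p = 0.7).

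*Cdkn1b* (ENSMUSG00000003031, chromosome 6 from 134920401 to 134925513, plus strand), which encodes p27, was second in level after *Kitl*. Its values were 81.8, 63.4 and 55.6 FPKM in Ctrl 1, 2 and 3 and 66.7, 82.6 and 74.6 FPKM in cKO 1, 2 and 3. Ctrl 1 stood with the cKO libraries and the groups overlapped. Its log2 fold change was 0.17 ± 0.17 (SE, unadjusted p = 0.363), and the ratio had a 95% interval from 0.846 to 1.49. With the germ cell level as a covariate it was 0.32 and past the limit (unadjusted p = 0.0406, adjusted p = 0.876), in a fit that called 2.42% of all genes higher.

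Per length, the levels in Ctrl ranked *Kitl*, *Cdkn1b*, *Rac1*, *Foxo3*, *Tsc2*, *Pdpk1*, *Kit*, *Tsc1* and *Foxo1*, from a mean of 124 to 4.54 FPKM. Neighbours whose Ctrl ranges overlapped were *Cdkn1b* with *Rac1* and *Kit* with *Tsc1*. In cKO the order was the same down to *Pdpk1* and then ran *Tsc1*, *Kit* and *Foxo1*. There the ranges overlapped for *Tsc2* with *Pdpk1*, *Pdpk1* with *Tsc1* and *Kit* with *Foxo1*. *Kit* thus stood above *Tsc1* in 2 of 3 Ctrl libraries, while in all 3 cKO libraries *Tsc1* was above *Kit*. In the RNA of the whole ovary the receptor transcript was scarce beside that of its ligand. *Kitl* was at rank 260 and *Kit* at rank 7520 of all genes by mean FPKM in Ctrl. These ranks do not separate the level per cell from the share of the cells that carry each gene.

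Several of these genes share their step with paralogues, and the shares of each family's summed FPKM were compared per library. Of the 4 class I PI3-kinase catalytic genes, *Pik3ca* gave 66.7 to 73.6% of the sum, *Pik3cb* 11.3 to 17.4%, *Pik3cd* 9.22 to 13.8% and *Pik3cg* 2.77 to 5.17%. *Foxo3* and *Foxo4* led the Foxo genes, with 31.9 to 43.9% and 30.6 to 35.8%, ahead of *Foxo6* with 15.8 to 26.8% and *Foxo1* with 5.57 to 10.9%. *Rac1* gave 67.3 to 81.3% of the Rac sum beside *Rac3* with 11 to 18.6%. *Rac2*, the form of blood cells, had 19.0 and 14.7% in Ctrl 1 and Ctrl 2 and 4.95 to 7.44% in the other 4 libraries. Among the Cip/Kip inhibitors *Cdkn1c* gave 72.8 to 79.6%, *Cdkn1b* 18.2 to 25.1% and *Cdkn1a* 1.19 to 2.34%. No gene of these families was called between the groups, and the leading gene of each family was the same in all 6 libraries except that *Foxo4* was above *Foxo3* in cKO 2.

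**Figure D4:**
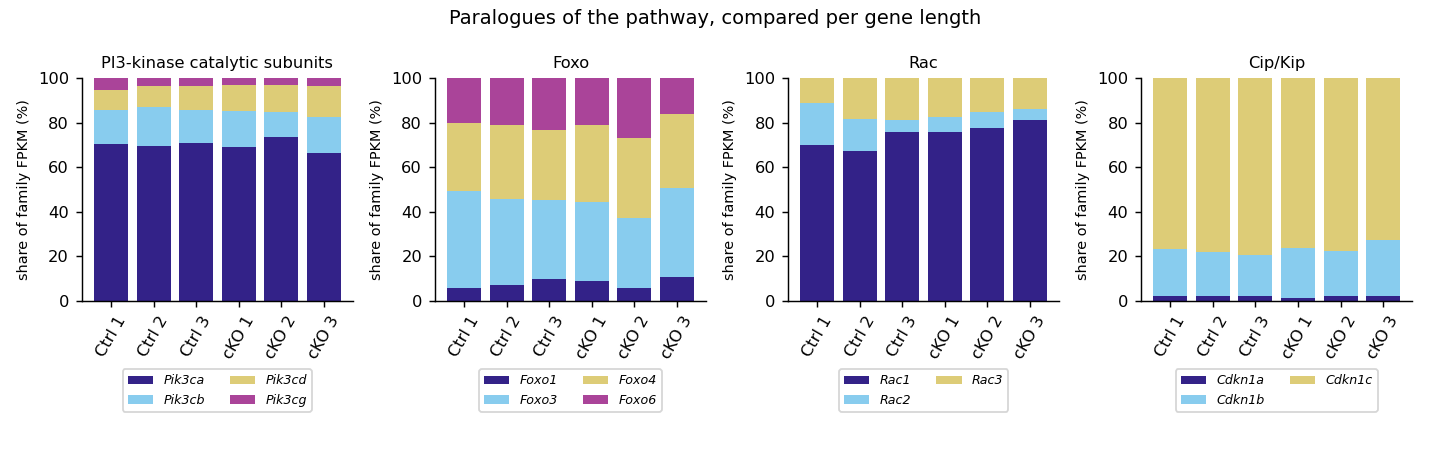
Share of each family's summed FPKM, in percent, taken by each paralogue in each library. *Pik3ca*, *Rac1* and *Cdkn1c* are the largest shares of their families in all 6 libraries, and *Foxo3* and *Foxo4* take similar shares.

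The rest of the pathway was read from 9 lists, also chosen with earlier results known, with 118 further genes, of which 117 were tested. *Igfbp1* was too low. Of the 117 genes, 2 were called, both higher in cKO, a share of 1.71% beside 4.43% of all genes tested in either direction and 2.68% called higher, and the median log2 fold change was -0.03. The groups did not overlap for 5 genes (4.27%, beside 8.68% of all genes tested). They were *Cdkn2a*, *Mapkap1* and *Sod2*, all higher in cKO, and *Pik3ca* and *Sh2b3*, both lower, and they are named after their values were seen.

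*Cdkn2a*, on chromosome 4 from 89274471 to 89294653, encodes the cell cycle inhibitor p16 and the p53 activator ARF, and was the furthest apart. It stood at 3.24, 2.42 and 5.18 FPKM in Ctrl 1, 2 and 3 and at 10.8, 9.25 and 16 FPKM in cKO 1, 2 and 3, so that every cKO library exceeded every Ctrl library. The log2 fold change was 1.51 ± 0.27 (SE, limma, unadjusted p = 0.000986, adjusted p = 0.978). It rested on 46 to 266 reads per library and passed the unadjusted limit in all 19 alternative fits. The remaining 15 genes of its list, the other inhibitors and the partners of p27, were not called. The share called in that list was thus 6.25%, beside 4.43% of all genes tested. In that list *Cdkn2c* had a log2 fold change of -0.72 (limma, unadjusted p = 0.0509) and *Ccne1* one of -0.59 (unadjusted p = 0.0601).

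Among 17 adaptors, kinases and negative regulators of KIT, 1 was called (5.88%), a share near the 4.43% of all genes tested. *Gab2*, a docking protein that links receptors such as KIT to PI3-kinase, gave 11.2, 11.1 and 14.6 FPKM in Ctrl 1, 2 and 3 and 18.7, 13.5 and 18.6 FPKM in cKO 1, 2 and 3. The groups overlapped, since cKO 2 was below Ctrl 3. The log2 fold change was 0.43 ± 0.18 (SE, unadjusted p = 0.0467), and the call was lost in 10 of the 19 alternative fits. Without Ctrl 1, Ctrl 2, cKO 1 or cKO 3 the log2 fold change was between 0.35 and 0.37, with an unadjusted p of 0.126, 0.140, 0.137 and 0.13 in that order. *Gab2*, like the germ cell sum, was highest in cKO 1 and cKO 3, followed by Ctrl 3. With the germ cell level as a covariate its log2 fold change was 0.27 (limma, unadjusted p = 0.0719). The mast cell level gave 0.34 (unadjusted p = 0.0959) and both marker lists 0.27 (unadjusted p = 0.104). Quantile normalization, voom and no trend, without a covariate, also lost the call (limma, unadjusted p = 0.0542, 0.0535 and 0.0539). The part of germ cells in the level of *Gab2* was not tested.

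None of the 11 PI3-kinase subunits was called, with a median log2 fold change of -0.10. The highest in level were the regulatory subunits *Pik3r3* at 26 to 45.6 FPKM, *Pik3r2* at 24.0 to 37.2 FPKM and *Pik3r1* at 15.6 to 21.6 FPKM. None of the 8 phosphatases that oppose PI3-kinase and AKT was called either. The lipid phosphatase *Inppl1* ran from 16.3 to 28 FPKM and *Inpp5k* from 6.72 to 8.72 FPKM. In the list of AKT kinases and mTORC2 none of 9 was called, with *Akt1* at 57.4 to 88.5 FPKM, *Akt2* at 22.8 to 32.5 FPKM and the mTORC2 subunit *Mapkap1* at 20.2 to 29.8 FPKM. Transcript levels say nothing of the phosphorylation through which these proteins act.

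Downstream of TSC1 and TSC2, none of 9 further genes of the complex, Rheb and mTORC1 was called. The ribosomal protein gene *Rps6*, whose product is phosphorylated downstream of mTORC1, ran from 615 to 677 FPKM, the translation repressor *Eif4ebp2* from 26.5 to 33.7 FPKM, and the mTORC1 inhibitor *Akt1s1* from 24.0 to 41.8 FPKM. The 9 genes of the LKB1 and AMPK branch were not called either. *Stk11*, which encodes LKB1, had 34.5, 32.7 and 24.7 FPKM in Ctrl 1, 2 and 3 and 20.6, 29.5 and 18.3 FPKM in cKO 1, 2 and 3 (log2 fold change -0.42 ± 0.21 SE, unadjusted p = 0.0862). Its scaffold *Cab39* ran from 18.8 to 23.9 FPKM and the AMPK subunit *Prkab1* from 15.1 to 28.5 FPKM.

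None of the 17 tested Foxo factors and known Foxo targets was called, with a median log2 fold change of -0.03. The thioredoxin inhibitor *Txnip* was highest, at 133, 105 and 84.5 FPKM in Ctrl 1, 2 and 3 and 83.3, 93.3 and 63.4 FPKM in cKO 1, 2 and 3. The catalase gene *Cat* ran from 31.8 to 64.4 FPKM and *Cited2* from 30.8 to 47.6 FPKM. Among 21 genes of signalling by Rac and related small GTPases none was called. *Cdc42* ran from 144 to 194 FPKM, the GTPase inhibitor *Arhgdia* from 111 to 152 FPKM and *Rhob* from 63.2 to 104 FPKM.

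**Figure D5:**
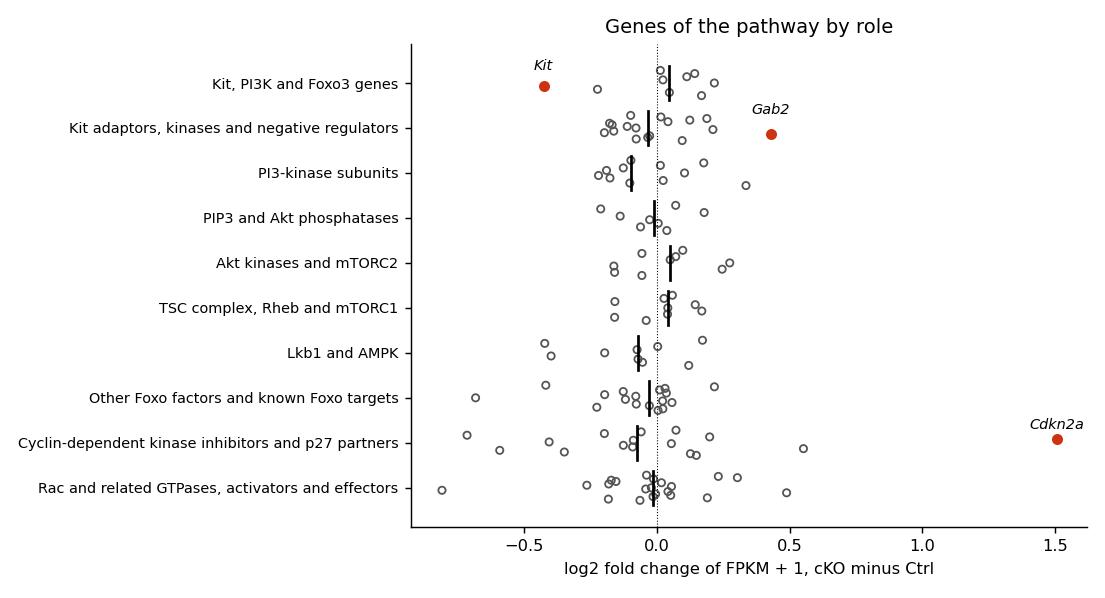
Log2 fold change of FPKM + 1, cKO minus Ctrl, for the 9 genes (top row) and the tested genes of the 9 pathway lists. Each circle is a gene, red filled circles passed the unadjusted limit, and black bars are list medians. *Kit*, *Gab2* and *Cdkn2a* are the called genes.

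Patterns over the 6 libraries most like those of receptor and ligand were looked up among 9365 genes with a mean of at least 5 FPKM, as a description without a test. Pearson's r on log2(FPKM + 1) with *Kit* was highest for *Nek2* (0.997), *Foxm1* (0.987), *Ubxn2b* (0.978), *Rfc5* (0.959) and *Pogk* (0.954), and 25 genes reached 0.9. *Nek2* stood at 6.72, 6.96 and 6.90 FPKM in Ctrl 1, 2 and 3 and at 4.47, 3.55 and 5.88 FPKM in cKO 1, 2 and 3, in nearly the same proportions as *Kit*. For *Kitl* the genes were *Tmem60* (0.992), *Lgr4* (0.991), *Actr2* (0.985), *Stt3b* (0.981) and *Snx3* (0.978), and 81 genes reached 0.9. The 6 points share genotype, library and cell makeup, so such values arise among many genes.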

How the data were processed

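FPKM values of poly-A RNA from 6 ovary libraries were analysed. Paired-end reads were mapped by the authors with HISAT2 (2.0.5 in the submitters' processing notes) on GRCm38 and counted with featureCounts, and the deposited values are FPKM. The annotation release is not stated in the sources used here, but coordinates and exon lengths of the 9 genes equal those of GENCODE M21. Depth was recovered from the value of 1 read, with all values whole to within 0.05. Reads on genes ranged from 14212164 to 16784241. A protocol field in the labels speaks of another tissue, although the tissue field says ovary, as do the paper's methods. Log2(FPKM + 1) was compared two-sided with limma 3.58.1 (R 4.3.3, intensity trend, genotype alone as term) over the 17180 genes averaging 0.5 FPKM or more. Genes were called at an unadjusted p below 0.05, the limit of the study, beside Benjamini-Hochberg adjusted values. The fit was tested on simulated data. Values per library were compared with exact permutation tests. Tables and figures were made with Python 3.11.15, numpy 2.4.6, pandas 2.3.3 and matplotlib 3.10.9.

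The members and lists (9 pathway and 9 cell marker lists) were chosen with earlier results of these data known. Named genes are the members, *Srsf1*, called pathway genes, up to 3 of the highest in lists with none, the paralogues and the 5 genes most like *Kit* and *Kitl*. Alternatives were pseudocounts of 0.1 and 0.5, no minimum or a minimum of 1 FPKM, median-ratio scaling, quantile normalization, voom on recovered reads, no trend, a replicate block, protein-coding genes alone, marker levels as covariates and each library left out. A few genes that this rule names are not reported here.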

Additional observations from a re-analysis of the deposited data

How the results depend on the processing

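*Srsf1* and *Cdkn2a* stayed past the limit in all 19 alternative fits. *Kit* stayed lower in all 19, with a log2 fold change between -0.54 and -0.32 when a library was left out (unadjusted p from 0.00754 to 0.0639) and between -0.52 and -0.41 otherwise (p from 0.0116 to 0.0445). Of 228 values of single genes, 190 kept their direction and side of the limit, 14 lost the limit, 3 gained it and 21 changed sign. All 21 were of differences that did not pass the limit in either fit. With voom *Pdpk1* was -0.0060 and *Tsc2* -0.0074. With the germ cell covariate *Pdpk1* was -0.18, *Foxo1* -0.095, *Tsc1* -0.014 and *Tsc2* -0.027, with the mast cell covariate *Pdpk1* was -0.10, *Tsc1* -0.0080 and *Tsc2* -0.0094, and with both *Pdpk1* was -0.18, *Foxo1* -0.076, *Tsc1* -0.035 and *Tsc2* -0.027. With a library left out *Pdpk1* ran from -0.12 to 0.31, *Foxo1* from -0.11 to 0.20, *Tsc1* from -0.0050 to 0.25 and *Tsc2* from -0.064 to 0.10. *Cdkn1b* was past the limit with the germ cell covariate (0.32) and with both (0.33, limma, unadjusted p = 0.0336).

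The number of all genes called, 460 higher and 301 lower, was 736 and 595 with no minimum FPKM, which tests 33797 genes. It was 350 and 343 with voom. With the germ cell covariate 551 genes were lower and 415 higher, and with both covariates 616 were lower and 428 higher. Of the 9 genes, 1 was called higher in each of these fits. Of the pathway genes, 1 was called higher, in place of 2, with quantile normalization, voom, no trend and each covariate fit. Against none, the number called lower was 1 with a minimum of 1 FPKM, quantile normalization, protein-coding genes alone, the germ cell covariate and both covariates, and 2 with voom. With a library left out, all genes called ran from 201 to 1458 higher and from 162 to 1040 lower, with the highest counts without cKO 2. The 9 genes called ran from 0 to 1 higher and from 0 to 1 lower, and pathway genes from 1 to 8 higher and from 0 to 10 lower. After adjustment 4 genes passed without Ctrl 1 and none in the other 18 alternative fits. *Kit* against the germ cell list ran from -1.27 to -0.54 and *Kitl* against the pregranulosa list from 0.13 to 0.40 with a library left out. The cause of these differences was not tested.

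The groups share replicate numbers, but the deviations of same-numbered libraries correlated at -0.39, -0.03 and 0.12, so the numbers were not taken to pair them. With the replicate block *Kit* was -0.43 (unadjusted p = 0.0445), 434 genes were called higher and 247 lower, and 2 pathway genes were called lower.

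With 3 libraries a group, differences of the size of the intervals given could not be told from none, and FPKM per gene holds neither splice forms nor protein activity.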

Other observations

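Marker genes of other cell types gave a further view of what the libraries held. In the list of 8 stroma genes none was called, and *Nr2f2* was higher in every cKO library (12.5 to 14.0 FPKM in Ctrl, 15.0 to 15.3 FPKM in cKO) without passing the limit (unadjusted p = 0.103). It was the only stroma gene whose groups did not overlap (12.5% of the list, beside 8.68% of all genes tested). The list as a whole did not go its way, with 3 of 8 log2 fold changes above 0 and a median of -0.11. None of the 8 endothelium genes, the 8 macrophage genes, the 12 pregranulosa genes or the 4 tested mesonephros genes was called. The macrophage gene *Adgre1* was lower in every cKO library (2.16 to 2.88 FPKM in Ctrl, 1.56 to 1.95 FPKM in cKO), also short of the limit (unadjusted p = 0.0923). It was the only macrophage gene whose groups did not overlap (12.5% of that list). The summed FPKM of the endothelium list was 85.1 to 105 in Ctrl and 81.9 to 108 in cKO, and that of the macrophage list was 45.8 to 54.8 in Ctrl and 34.6 to 57.3 in cKO. The mesonephros list, of tissue beside the ovary, summed to 15.3 to 19.2 FPKM in Ctrl and 13.9 to 15.2 FPKM in cKO, and *Epcam* made up most of it.

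Of the 9 red blood cell genes, 1 was called (11.1%, beside 4.43% of all genes tested), the only 1 with a log2 fold change above 0. The embryonic globin gene *Hbb-y* stood at 9.59, 6.15 and 10.5 FPKM in Ctrl 1, 2 and 3 and at 99.6, 23.9 and 26.4 FPKM in cKO 1, 2 and 3 (log2 fold change 2.10 ± 0.53 SE, limma, unadjusted p = 0.00589). It was highest in cKO 1, the library in which the sum of the red blood cell list was lowest.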
